A study of Sus scrofa with 37 samples.

Results

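Transporter proteins of the plasma membrane and lysosome carry amino acids, sugars and lactate into and out of muscle fibres and the cells around them. Their genes were followed here after contusion, a blunt mechanical injury, in the skeletal muscle of a miniature pig, the Bama minipig. Members were chosen by gene symbol alone, as all genes of the solute carrier families SLC1, SLC2, SLC3, SLC5, SLC6, SLC7, SLC16, SLC36, SLC38 and SLC43. The table of counts holds 41 such genes among 9418 rows: 25 of the amino acid families, 9 of the sugar and polyol families and 7 of the monocarboxylate family. All 41 passed the filter on low counts, which kept 9411 genes. The table itself holds no gene that is low in every library, so weakly expressed transporters are not analysed here, and neither are SLC2A1, SLC2A3 and SLC38A1, the genes of GLUT1, GLUT3 and SNAT1.

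The study compared muscle sampled every 4 h from 4 to 24 h after contusion, and again at 48 h, with 4 libraries at each of these 7 times and 9 libraries labelled as controls. No genotype, drug, age or sex is given in the labels used here, and mechanical damage is entered as the treatment of every library, the controls included, so how control muscle was handled is not known. Only 8 animals gave the 37 libraries, and no label ties a library to its animal, so every p-value below measures only the spread between libraries. Levels are given as CPM (a gene's counts scaled to the library's total) in each library in the order of its replicate number, as the lowest, median and highest of the 9 controls, or as mean ± SD (n = 9 for control and n = 4 at each time). A gene is said to have risen or fallen only where edgeR's quasi-likelihood test gave an adjusted p under 0.05 over all genes tested, and log2 fold changes are given ± SE. In whole muscle, fewer cells of a type and less RNA per cell cannot be told apart.

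Muscle takes up glucose mainly through GLUT4, the product of SLC2A4, which insulin and contraction bring to the fibre surface, and it exchanges lactate with the blood through the monocarboxylate transporters of the SLC16 family. Large neutral amino acids enter many cells through exchangers of the SLC7 family, each of which needs the heavy chain CD98, the product of SLC3A2, to reach the membrane, while members of the SLC1 and SLC38 families bring in glutamate, glutamine and small neutral amino acids with sodium. Transporters on the lysosome return amino acids from degraded protein to the cytosol, where they are sensed by the kinase complex mTORC1.

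Transporter genes moved in both directions after contusion, with 22 to 31 members called at 8, 16, 20 and 24 h and 10 or 11 at 4 and 48 h. At 4 h, 10 of 41 passed the test (7 higher and 3 lower), against 18.3% of all genes tested (9.22% higher and 9.06% lower). At 8 h, 22 passed (13 higher and 9 lower), 53.7% of the members against 54% of all genes (25.8% higher and 28.2% lower), which is no more than the background. At 12 h, 16 passed (13 higher and 3 lower), against 31% of all genes (16.3% higher and 14.7% lower).

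At 16 h the count was 31 (20 higher and 11 lower), or 75.6% of members against 53.1% of all genes (25.3% higher and 27.8% lower). At 20 h it was 28 (18 higher and 10 lower), or 68.3% against 51.5% (25.4% higher and 26.2% lower). At 24 h it was 29 (18 higher and 11 lower), or 70.7% against 53.9% (26.8% higher and 27.1% lower). By 48 h only 11 passed (9 higher and 2 lower), or 26.8% against 20.3% (12.8% higher and 7.45% lower). With the 7 times tested together, 38 of 41 members and 83.2% of all genes were called. With the library sets described further on as a term, the count at 16 h was 19, below the 21 of 8 h, and the later counts were 30 (20 h) and 31 (24 h). The counts at the ends of the course rested on few libraries: 3 members were called at 4 h without library 2 and 6 without library 3 or 4, and at 48 h 0 were called without library 1, 4 without library 3 and 19 without library 4. The shares of members and of all genes were not tested against each other.

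The size of the changes, without regard to direction, was larger in the transporters than in the whole table. The median absolute log2 fold change at 24 h was 1.16 over the 41 members and 0.52 over all genes tested, and at 4 h it was 0.65 and 0.29. Over the 7 times, 22 members only rose, 13 only fell, 3 did both and 3 did neither in any single comparison. Over all genes tested, 39.4% only rose, 42.1% only fell, 5.22% did both and 13.3% did neither, so that both directions were also common in the whole table. Of the 25 genes of the amino acid families, 16 only rose and 6 only fell. Families were set by symbol and not by substrate. The creatine carrier gene SLC6A8 and SLC43A3 thus count among these 16, SLC5A6 as sugar and SLC16A10 as monocarboxylate. The 9 sugar and polyol genes were divided as 4 that only rose, 4 that only fell and 1 that did both, and the 7 monocarboxylate genes as 2 that rose, 3 that fell and 2 that did neither.

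**Figure D1:**
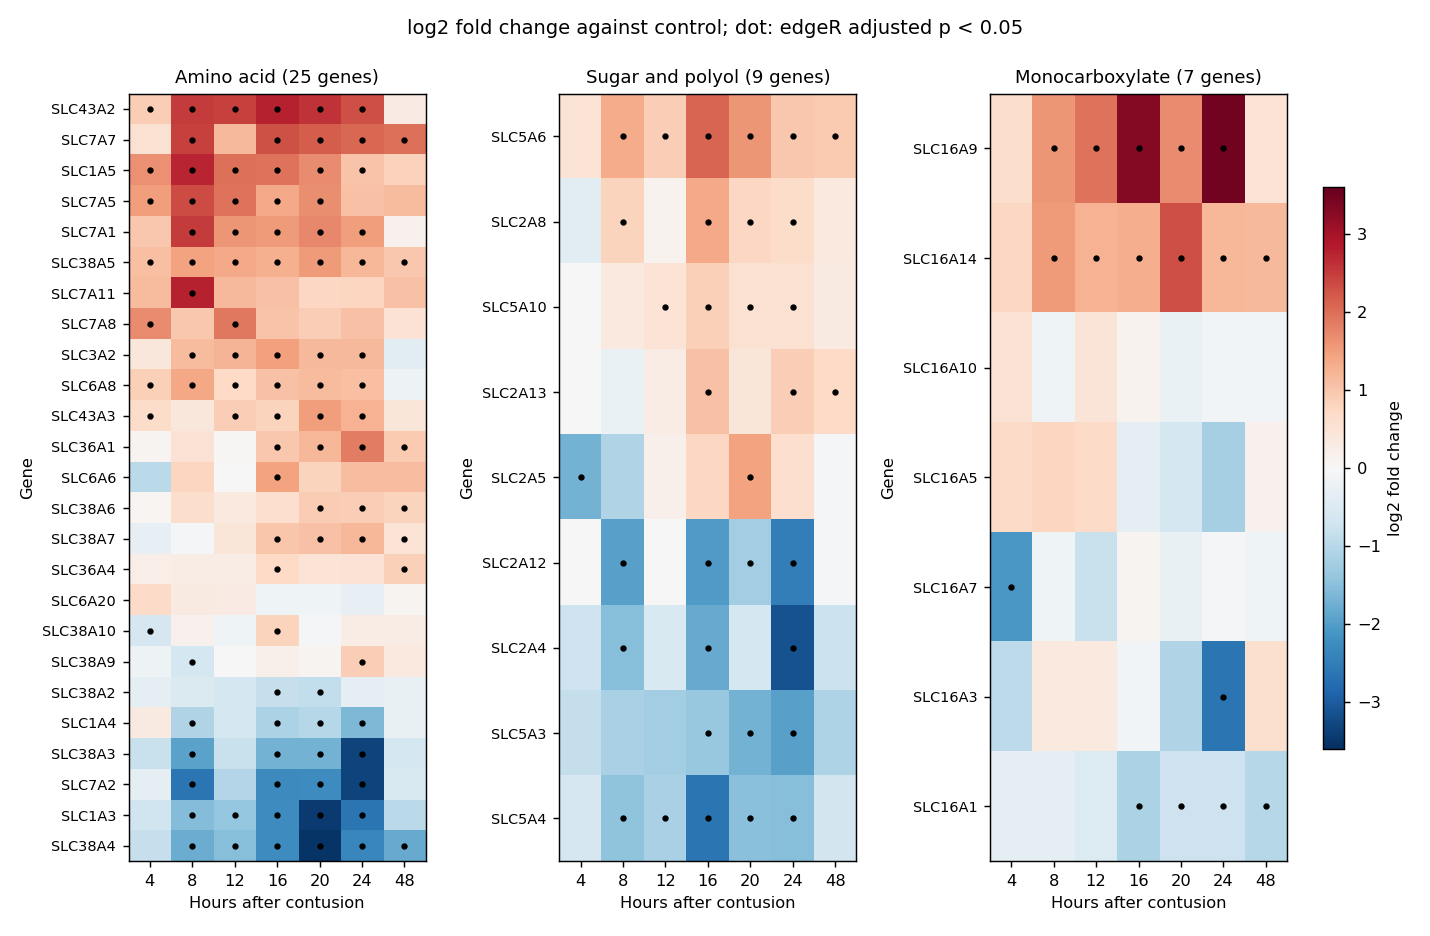
Log2 fold change against control for each of the 41 transporter genes (rows, in 3 panels by family) at 4 to 48 h after contusion (columns); red is higher than control, blue is lower, and a dot marks an adjusted p under 0.05 in edgeR. Of the genes of the amino acid families 16 only rose, while SLC38A3, SLC38A4, SLC7A2 and SLC1A3 form the blue rows at the foot of that panel.

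The libraries differed in muscle fibre type and in leukocyte markers, and these differences moved with the groups. Markers of myofibres, such as CKM and DES, were present in every library, with a summed level of 46800 to 82700 CPM in the controls and 20200 to 33900 CPM at 24 h. Slow fibre markers (8 of 8 in the table) summed to 10900 to 135000 CPM in the controls and to 5090 to 8530 CPM over the 16 and 24 h libraries, and all 8 genes fell at each time from 8 to 24 h. In controls 5, 6 and 7 the summed fast fibre markers (5 of 9 in the table) exceeded the slow ones, and in the other 6 controls they did not. The sums differ in their number of markers and are not on one scale. The fast sum also exceeded the slow one in every library from 4 to 24 h, and at 48 h in all but library 4. Of the fast markers, 2 rose at 4 h and 1 at 12 h, 1 fell at 24 h, and no other call was made. Their median log2 change was 0.58 to 1.02 from 4 to 12 h and -0.45 to 0.03 later. Neutrophil markers (5 of 10 in the table) summed to 0.781 to 8.49 CPM in the controls and 15.2 to 240 CPM at 8 h. Macrophage and monocyte markers (12 of 13) summed to 90.1 to 248 CPM in the controls, and to 915, 172, 719 and 197 CPM in the 48 h libraries. Fibroblast markers (10 of 10 in the table) summed to 2290 to 8750 CPM in the controls and 879 to 3200 CPM at 8 h, and 9 of them fell at 8 h and 8 at 20 h. Adipocyte markers (7 of 8) summed to 624 to 1850 CPM in the controls and 231 to 434 CPM at 8 h. Of 8 pericyte and smooth muscle markers in the table, 5 or 6 fell at each time from 4 to 24 h. Library 1 at 20 h stood apart from the other 3 of its time, with 84800 CPM of myofibre markers against 27600 to 37100 CPM and 5020 CPM of fibroblast markers against 1480 to 1940 CPM. That library was also the highest of its time for SLC2A4, SLC2A12, SLC7A2 and SLC38A3, and without it 31 members were called at 20 h in place of 28. No marker on these lists was at 0 throughout a group. Libraries also fell into 5 sets by total counts and by the levels of 3 genes that are no transporters, with 3 of 4 libraries at 4 h in set 2, all of those at 16 h in set 1 and all at 48 h in set 5. With the sets as a term, SLC43A2 (1.78) and SLC1A5 (2.16) were the only members called at 4 h, and at 16 h SLC1A5 (1.16), SLC7A1 (0.93), SLC7A7 (1.54), SLC36A1 (0.59) and SLC43A3 (0.61) were among those no longer called. The part of fibre type, leukocytes and library set in the transporter changes was not tested beyond the values given beside each gene. Fits against controls 5, 6 and 7 alone keep fewer controls, so a call can be lost there without a smaller change.

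**Figure D2:**
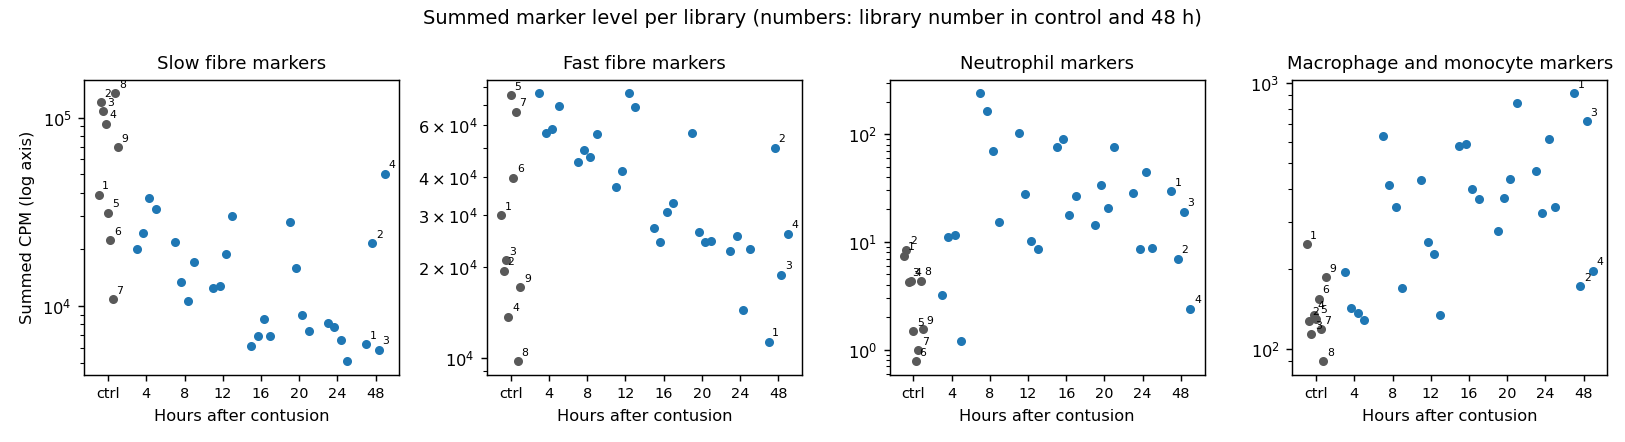
Summed CPM (log axis) of slow fibre, fast fibre, neutrophil and macrophage or monocyte markers, 1 point per library, by group; the numbers beside the points are library numbers in control and at 48 h. Controls span 10900 to 135000 CPM of slow fibre markers, and 48 h libraries 1 and 3 lie above 2 and 4 in macrophage markers.

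The clearest rise among the amino acid transporters was that of SLC43A2, the gene of LAT4, which carries branched-chain amino acids, phenylalanine and methionine by facilitated diffusion (chromosome 12, 47791911 to 47839127 in Sscrofa11.1). The controls ranged from 74.6 to 167 CPM, with a mean of 107 ± 31.1 CPM. SLC43A2 stood at 162.6, 281.1, 242.4 and 111.5 CPM at 4 h and at 746, 642, 642 and 405 CPM at 8 h. At 12 h the libraries held 813, 949, 318 and 292 CPM, at 16 h 955, 796, 657 and 539 CPM, at 20 h 887, 615, 618 and 478 CPM, and at 24 h 808, 435, 297 and 580 CPM. Every library from 8 to 24 h was above every control, and at 4 h the groups overlapped. The log2 fold change was 0.90 ± 0.28 at 4 h (adjusted p = 0.0234), 2.51 ± 0.27 at 8 h (adjusted p = 1.55e-08) and 2.78 ± 0.27 at 16 h (adjusted p = 4.15e-09), a 6.88-fold difference. The 48 h libraries were back within the control range at 132.9, 140.4, 143.6 and 112.3 CPM, and the step from 24 to 48 h was itself a fall of 2.00 ± 0.35 on the log2 scale (adjusted p = 0.000204). At 8 to 24 h these calls were kept with only controls 5, 6 and 7 (log2 2.18 to 2.65), whereas the 4 h call was lost without 4 h library 2 (adjusted p = 0.158) or library 3 (adjusted p = 0.0823).

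SLC43A3, of the same family and known as a purine nucleobase transporter, was at 5.71, 10.7 and 11.8 CPM (lowest, median and highest) in the controls. It reached 27.1, 26.0, 25.6 and 33.7 CPM at 20 h, with no overlap with the controls, a log2 change of 1.51 ± 0.20 (adjusted p = 6.90e-07). It was also called higher at 12, 16 and 24 h (0.79 to 1.25), and at 4 h (0.65 ± 0.21, adjusted p = 0.0286), a call that was lost when 4 h library 1, 2 or 4 was left out (adjusted p = 0.0549, 0.089 and 0.0589).

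SLC3A2, the heavy chain CD98 that the SLC7 exchangers share (chromosome 2, 8892071 to 8919070), rose over the same hours. Its control levels were 34.1, 64.0 and 101.3 CPM (lowest, median and highest). It read 163.7, 166.6, 136.2 and 126.9 CPM at 8 h and 216.6, 178.0, 196.4 and 157.2 CPM at 16 h, all above the controls. At 24 h it read 218.6, 166.2, 59.9 and 160.3 CPM, where library 3 lay inside the control range. The log2 change was 1.13 ± 0.24 at 8 h (adjusted p = 0.000215), 1.47 ± 0.24 at 16 h (adjusted p = 9.89e-06) and 1.16 ± 0.24 at 24 h (adjusted p = 0.000161). At 48 h the level was 40.2, 74.9, 32.7 and 62.0 CPM, and the drop from 24 to 48 h (-1.53 ± 0.30) gave an adjusted p of 0.000633.

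SLC7A5 encodes LAT1, the CD98 partner that exchanges large neutral amino acids such as leucine for glutamine (chromosome 6, 1545940 to 1574298). Its controls were the most divided of the exchangers: controls 5, 6 and 7 held 25.3, 18.3 and 31.6 CPM, and the other 6 held 0.978 to 6.05 CPM. At 8 h it stood at 63.1, 63.5, 52.1 and 33.4 CPM, above every control (log2 2.36 ± 0.51, adjusted p = 0.000288). It was also called higher at 4, 12, 16 and 20 h with overlapping groups, by 1.36 to 1.97. Against controls 5, 6 and 7 alone only the 8 h rise remained (log2 1.08), and at 16 h the value was 0.09. The 4 h call (adjusted p = 0.0396) was also lost when control 1, 2, 3, 4, 8 or 9, or 4 h library 2, 3 or 4, was left out, and that at 16 h (adjusted p = 0.0271) without 16 h library 1 or 2.

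SLC7A8, the gene of LAT2, another CD98 partner for neutral amino acids, lies near the SLC7A7 gene on chromosome 7 (75854700 to 75921931). Its highest control was 138 CPM and its median control 21.7 CPM. At 12 h it held 154.3, 197.8, 157.9 and 170.1 CPM, all above the controls, a log2 change of 1.91 ± 0.53 (adjusted p = 0.00707), and it was also called higher at 4 h (1.70 ± 0.53, adjusted p = 0.0254). With only controls 5, 6 and 7 neither call remained and the 12 h change was 0.73.

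SLC7A7 encodes y+LAT1, which carries cationic and neutral amino acids and is abundant in macrophages. It was low in the controls (0.628 to 2.2 CPM) and stood at 10.7, 10.9, 4.37 and 1.77 CPM at 8 h, at 8.46, 8.44, 3.43 and 4.26 CPM at 16 h and at 9.26, 1.77, 7.25 and 1.35 CPM at 48 h. Libraries 1 and 3 at 48 h, which had the highest macrophage marker sums of that time, were also the high ones for SLC7A7. SLC7A7 differed by 2.47 ± 0.52 at 8 h on the log2 scale (adjusted p = 0.000198) and 1.98 ± 0.52 at 48 h (adjusted p = 0.00766), and it was called higher at 16, 20 and 24 h as well. The gene overlaps OXA1L, and since no strand setting of the counting is given its reads cannot be told apart from those of its neighbour.

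SLC7A11 encodes xCT, which imports cystine for glutathione in exchange for glutamate. It was low in all groups: the controls held 0.33 to 1.74 CPM, and the 8 h libraries 8.04, 9.29, 2.85 and 0.772 CPM. Library 4 at 8 h lay inside the control range while the other 3 lay above it. The 8 h change of 2.77 ± 0.56 (adjusted p = 0.000125) was the only call of the 7 times. The highest levels of SLC7A11 in any library were the 8.04 and 9.29 CPM at 8 h. Since the table holds no gene that is low in every library, SLC7A11 may be in it only through the 8 h libraries. Its 8 h call is therefore not independent of how rows were kept.

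The 2 genes for cationic amino acid transporters in the table went opposite ways. SLC7A1 encodes CAT-1, the widely expressed arginine and lysine carrier, and SLC7A2 encodes CAT-2, whose variants are found in muscle, liver and activated macrophages. SLC7A1 (chromosome 11, 6538053 to 6604654) rose from control levels of 2.95, 8.59 and 13.4 CPM (lowest, median and highest) to 65.2, 60.8, 40.4 and 15.5 CPM at 8 h. All 4 of those libraries lay above the controls, and the difference was 2.51 ± 0.36 (adjusted p = 1.17e-06). It remained called at 12, 16, 20 and 24 h, by 1.499 to 1.727, and not at 48 h.

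SLC7A2 (chromosome 17, 5191973 to 5271849) fell from 87.7, 111 and 202 CPM in the controls to 8.04, 12.8, 20.0 and 37.5 CPM at 8 h and to 20.0, 12.7, 9.01 and 6.55 CPM at 24 h. Neither time overlapped with the controls. The log2 changes were -2.62 ± 0.55 (adjusted p = 0.000213) and -3.32 ± 0.58 (adjusted p = 2.03e-05), the latter a 10.0-fold lower level. SLC7A2 was also called lower at 16 and 20 h, and at 20 h the change of -2.28 became -3.42 without 20 h library 1. Between these falls, the 12 h libraries held 46.4, 62.5, 63.3 and 60.4 CPM, all below the controls but without a call (adjusted p = 0.107). At 48 h it stood at 29.5, 127.9, 68.5 and 105.7 CPM, a rise of 2.79 ± 0.60 from 24 h (adjusted p = 0.00149). SLC7A2 is among the genes described after their values were seen, as are SLC38A3, SLC7A7, SLC7A8, SLC2A5, SLC38A9, SLC38A10, SLC38A5, SLC38A6, SLC16A14, SLC16A7 and SLC2A8.

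**Figure D3:**
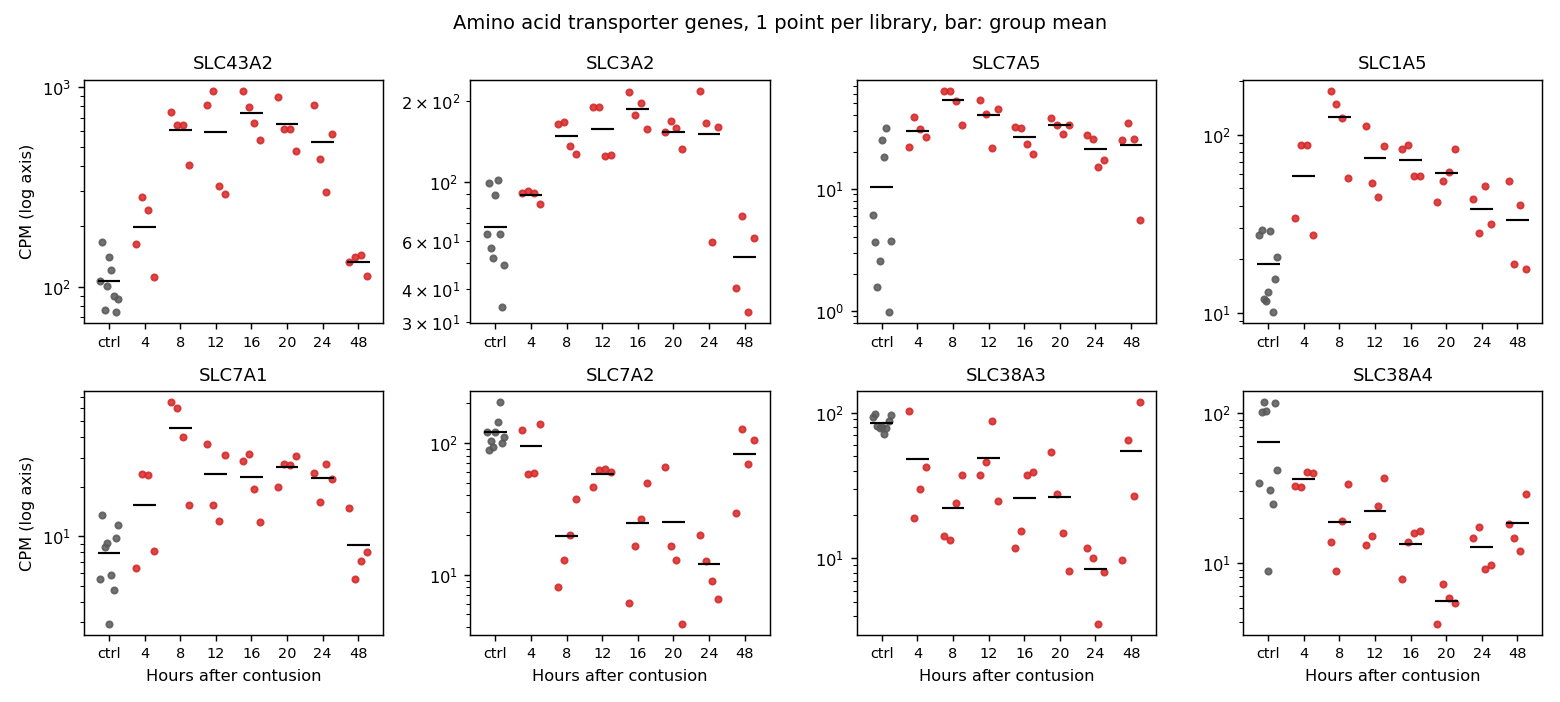
CPM (log axis) of 8 amino acid transporter genes in each library, by group (control in grey, hours after contusion in red), with the group mean as a bar. SLC43A2, SLC3A2, SLC7A5, SLC1A5 and SLC7A1 were all called higher at each time from 8 to 20 h, and SLC7A1 reaches 65.2 CPM at 8 h. SLC7A2, SLC38A3 and SLC38A4 were all called lower at 8, 16, 20 and 24 h.

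The 3 members of the SLC1 family also divided. SLC1A5 encodes ASCT2, a sodium-dependent exchanger that brings glutamine into proliferating and activated cells (chromosome 6, 52647432 to 52661464). Its controls held 10.1, 15.4 and 29.2 CPM (lowest, median and highest), and the 8 h libraries 176.9, 148.7, 124.5 and 56.9 CPM, with no overlap. This log2 change was 2.76 ± 0.33 at 8 h (adjusted p = 8.75e-08), and it stayed called from 4 h (1.66 ± 0.33) to 24 h (1.04 ± 0.34), falling short at 48 h (adjusted p = 0.0856). The calls at 4 to 20 h were kept against controls 5, 6 and 7 alone (log2 1.76 to 2.86). Against those controls the 24 h change was 1.14, no smaller than in the full fit, but missed the threshold (adjusted p = 0.0518). The 24 h call (adjusted p = 0.0105) was also lost without 24 h library 3 (adjusted p = 0.0506).

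SLC1A4 encodes ASCT1, an exchanger of alanine, serine and cysteine. It held 8.01, 15.7 and 25.1 CPM in the controls and 5.21, 5.39, 3.93 and 4.72 CPM at 24 h, below every control, a log2 change of -1.62 ± 0.28 (adjusted p = 1.95e-05). It also fell at 8, 16 and 20 h, by 1.04 to 1.13 on the log2 scale, with groups that overlapped. Against controls 5, 6 and 7 alone the falls at 8 and 20 h were lost and those at 16 and 24 h kept.

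SLC1A3 encodes EAAT1, a sodium-dependent glutamate transporter (chromosome 16, 21873691 to 21965315). Its level went from 8.73, 18.1 and 27.6 CPM in the controls to 2.42, 1.40, 1.12 and 1.87 CPM at 20 h. Every 16, 20 and 24 h library lay below every control. The fall at 20 h was -3.45 ± 0.47 (adjusted p = 1.03e-06), a 10.9-fold lower level, and it was called lower at 8, 12, 16 and 24 h too. The calls at 8 and 12 h were lost against controls 5, 6 and 7 alone (-0.82 and -0.67), and that at 12 h also without 12 h library 1 (adjusted p = 0.0596).

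The SLC38 family, with 8 members in the table, includes sodium-coupled carriers of glutamine and other neutral amino acids. SLC38A3 encodes SNAT3, a glutamine carrier that can run in either direction (chromosome 13, 32683131 to 32699803). It was even across the controls, at 71.6 to 97.0 CPM, and stood at 11.9, 10.1, 3.57 and 8.03 CPM at 24 h. The log2 change was -3.33 ± 0.57 (adjusted p = 1.93e-05), and the 8, 16 and 20 h libraries were also all below the controls, with falls of 1.70 to 1.93, of which those at 16 and 20 h were lost against controls 5, 6 and 7 alone (-1.56 and -1.55). The 20 h change of -1.70 became -2.32 without 20 h library 1. With the library sets as a term the 16 h fall (-1.61) was not called. At 48 h the libraries spread from 9.69 to 117.3 CPM, with libraries 1 and 3 below and library 4 above the control range.

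SLC38A4 encodes SNAT4, a carrier of small neutral amino acids, and lies near SLC38A2 on chromosome 5 (77411610 to 77489542 and 77113491 to 77127715). Its control levels of 8.73, 41.7 and 117 CPM were spread, and controls 5, 6 and 7 held 8.73 to 30.4 CPM. At 20 h it was at 3.92, 7.22, 5.80 and 5.35 CPM, below every control (log2 -3.52 ± 0.53, adjusted p = 4.27e-06). It was called lower at each time from 8 to 48 h. Against controls 5, 6 and 7 alone only the 20 h fall was kept (-1.93) and the 12 h value became 0.06. The 12 h call was also lost without 12 h library 1 (adjusted p = 0.0638) and the 48 h call without 48 h library 1 or 3 (adjusted p = 0.0528 and 0.0516). Its gene model overlaps LOC106510389.

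SLC38A2 encodes SNAT2, which starved cells are known to induce. Its control levels were 190.4, 556 and 722 CPM, and it held 199.2, 265.0, 332.6 and 365.0 CPM at 16 h and 232.2, 280.4, 311.3 and 301.6 CPM at 20 h. The groups overlapped at both times. The changes of -0.83 ± 0.27 (adjusted p = 0.00953) and -0.88 ± 0.27 (adjusted p = 0.0068) were its only calls, and both were lost against controls 5, 6 and 7 alone (-0.14 and -0.18). The 16 h call was also lost without 16 h library 1 (adjusted p = 0.0555).

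SLC38A5, encoding SNAT5, a glutamine and glycine carrier, was the 1 transporter called higher at all 7 times, from 1.27 to 3.63 CPM in the controls to 6.90, 6.29, 6.15 and 10.4 CPM at 20 h (log2 1.52 ± 0.23, adjusted p = 4.67e-06). Its 4 h call was lost with the library sets as a term (0.74), and its 48 h call was lost without 48 h library 1. SLC38A10, whose product is less studied, moved down at 4 h (-0.60 ± 0.21, adjusted p = 0.0428) and up at 16 h (0.80 ± 0.20, adjusted p = 0.00104). Its 16 h libraries were close together at 51.7, 54.2, 50.1 and 54.1 CPM, above controls of 23.6 to 45.02 CPM. Neither SLC38A10 call was kept with the library sets as a term (0.06 at 4 h and 0.38 at 16 h). SLC38A6, an orphan of the family, was called higher at 20, 24 and 48 h by 0.79 to 0.92. Its 48 h call was lost with the library sets as a term (0.94) and without 48 h library 1.

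Several members act on the lysosome. SLC38A7 encodes SNAT7, which exports glutamine and asparagine from lysosomes (chromosome 6, 20387113 to 20401733). Its 9 controls lay between 4.31 and 6.07 CPM, and its libraries were at 11.13, 9.01, 9.51 and 10.2 CPM at 16 h and at 10.3, 13.1, 10.9 and 11.5 CPM at 24 h. No library from 16 to 24 h overlapped with a control. On the log2 scale the rise was 1.00 ± 0.17 at 16 h (adjusted p = 1.78e-05), 1.05 ± 0.17 at 20 h (adjusted p = 9.68e-06) and 1.21 ± 0.17 at 24 h (adjusted p = 9.70e-07). At 48 h the difference was 0.50 ± 0.17 (adjusted p = 0.0402) and depended on single libraries: the call was lost when 48 h library 1 or 3, or control 1, 2, 4, 5, 8 or 9, was left out.

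SLC36A1 encodes PAT1, a proton-coupled exporter of small amino acids from lysosomes (chromosome 16, 71540646 to 71589532). It rose from 2.25, 5.11 and 7.94 CPM in the controls to 18.7, 15.2, 24.8 and 16.9 CPM at 24 h, with no overlap and a log2 change of 1.85 ± 0.24 (adjusted p = 3.86e-07). It was called higher at 16, 20 and 48 h as well. At 48 h, libraries 1 and 3 held 14.7 and 14.0 CPM and libraries 2 and 4 held 5.42 and 5.99 CPM, within the control range, and the call was lost without library 1 (adjusted p = 0.129) or library 3 (adjusted p = 0.0868). SLC36A4, encoding PAT4, was called higher at 16 h (0.71 ± 0.24) and 48 h (0.85 ± 0.24), and its gene overlaps DEUP1. Its 16 h call was lost with the library sets as a term (0.53), and its 48 h call without 48 h library 1.

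SLC38A9 encodes the lysosomal arginine sensor that signals to mTORC1. It was at 6.12 to 10.7 CPM in the controls, lower at 8 h (-0.64 ± 0.18, adjusted p = 0.00325) and higher at 24 h, where it held 12.3, 16.3, 19.3 and 15.9 CPM (0.90 ± 0.16, adjusted p = 3.61e-05). The step from 20 to 24 h was itself called (0.79 ± 0.20, adjusted p = 0.0224). With the library sets as a term, that step and the 8 h fall (-0.35) were not called, while the 24 h rise (0.76) was. Its gene model overlaps PLPP1.

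In the SLC6 family, SLC6A8 encodes the creatine transporter, through which muscle takes up nearly all its creatine (chromosome X, 124435282 to 124452182). The controls held 101.1, 121 and 206 CPM, and the libraries 381, 315, 363 and 354 CPM at 8 h and 297, 292, 278 and 260 CPM at 16 h. Every library at 8, 16, 20 and 24 h was above every control. The log2 change was 1.39 ± 0.18 at 8 h (adjusted p = 2.00e-07). The gene was called at each time from 4 to 24 h (at 4 and 12 h not against controls 5, 6 and 7 alone), but not at 48 h, where it held 111.9, 152.1, 87.1 and 121.6 CPM. The difference from 24 to 48 h was -1.26 ± 0.22 (adjusted p = 0.000215).

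SLC6A6 encodes TauT, the taurine transporter. It spread widely in the controls, from 2.83 to 49.3 CPM, and was called only at 16 h, where it held 49.2, 66.9, 33.4 and 19.0 CPM (1.46 ± 0.53, adjusted p = 0.0219). That call was lost without 16 h library 1 (adjusted p = 0.058) or library 2 (adjusted p = 0.102), with controls 5, 6 and 7 left out (1.07) and with the library sets as a term (0.58). Against controls 5, 6 and 7 alone it was called at 8, 16, 20, 24 and 48 h, by 2.18 to 2.88. SLC6A20, a proline carrier, was at 2.24 to 10.8 CPM over the controls and all times and passed no test.

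Among the sugar transporters, SLC2A4, the gene of GLUT4 (chromosome 12, 52628746 to 52634965), fell and recovered unevenly. Control levels were 296, 465.7 and 741 CPM (lowest, median and highest). It held 111.5, 136.0, 180.9 and 250.1 CPM at 8 h, 88.6, 95.6, 180.5 and 191.4 CPM at 16 h and 89.3, 73.8, 20.7 and 38.5 CPM at 24 h. All of these libraries lay below all controls. The log2 change was -1.52 ± 0.47 at 8 h (adjusted p = 0.00656), -1.81 ± 0.47 at 16 h (adjusted p = 0.0019) and -3.13 ± 0.51 at 24 h (adjusted p = 9.55e-06), an 8.77-fold lower level.

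At 12 h SLC2A4 stood at 294.7, 399.3, 383.1 and 250.8 CPM and at 20 h at 576.4, 327.8, 227.1 and 120.3 CPM, and neither time was called. Without 20 h library 1 the 20 h change was -1.11 (adjusted p = 0.0569) in place of -0.64. At 48 h libraries 1 and 3 held 45.8 and 113.7 CPM and libraries 2 and 4 held 385.4 and 589.2 CPM. The time as a whole showed no call. Libraries 1 and 3 alone gave -2.61, but they were kept after the values were seen and are the lower ones of that time. That value is therefore no test of a fall at 48 h. Libraries 2 and 4 were also those with the higher myofibre marker sums at 48 h (75200 and 53500 against 20600 and 31000 CPM). The falls at 16 and 24 h were kept against controls 5, 6 and 7 alone (-1.63 and -2.95), and that at 8 h (-1.34) was not.

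SLC2A12 encodes GLUT12, another glucose carrier of muscle that responds to insulin (chromosome 1, 29835964 to 29901996, overlapping TBPL1). Its controls ranged from 13.3 through 23.1 to 39.6 CPM. It stood at 5.33, 5.82, 5.04 and 10.0 CPM at 8 h, back at 21.7, 24.4, 34.5 and 21.0 CPM at 12 h, and at 4.71, 5.33, 6.74 and 7.77 CPM at 16 h. The 8, 16 and 24 h libraries lay below all controls and the 12 h libraries lay among them. The log2 changes were -1.94 ± 0.40 at 8 h (adjusted p = 0.00015), 0.01 ± 0.38 at 12 h, -2.03 ± 0.40 at 16 h (adjusted p = 9.51e-05), -1.24 ± 0.38 at 20 h (adjusted p = 0.00673) and -2.50 ± 0.41 at 24 h (adjusted p = 8.58e-06). The 20 h change became -1.96 without 20 h library 1, which held 23.5 CPM. The steps from 8 to 12 h (1.96 ± 0.44, adjusted p = 0.00672) and from 12 to 16 h (-2.05 ± 0.43, adjusted p = 0.00324) were themselves called, but neither was with the library sets as a term. Of the 8 libraries at 8 and 16 h 7 were in set 1, and the 12 h libraries were in sets 2 and 4.

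SLC2A5 encodes GLUT5, the fructose carrier. It was at 9.95, 6.52, 8.94 and 7.46 CPM at 4 h and 64.1, 111.8, 54.8 and 60.9 CPM at 20 h, against 7.14, 28.5 and 54.5 CPM in the controls. The 4 h libraries overlapped with the lowest controls, and the 20 h libraries lay above the highest. The changes were -1.70 ± 0.56 (adjusted p = 0.0321) and 1.45 ± 0.47 (adjusted p = 0.0107). The 4 h fall vanished against controls 5, 6 and 7 alone (-0.06), against which the gene was called higher at 12, 16, 20 and 24 h (1.82 to 3.09), while without those controls the 20 h rise missed the threshold (1.03).

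SLC2A8, encoding the intracellular carrier GLUT8, rose at 8, 16, 20 and 24 h, from 1.35 to 4.71 CPM in the controls to 8.97, 6.67, 7.40 and 7.56 CPM at 16 h (1.36 ± 0.27, adjusted p = 0.000129). SLC2A13, encoding the proton-coupled myo-inositol carrier HMIT, was called higher at 16, 24 and 48 h by 0.71 to 1.06. With the library sets as a term, the 8 h call of SLC2A8 (0.35) and the 16 and 48 h calls of SLC2A13 (0.87 and 0.67) were lost. SLC5A3, encoding SMIT1, the sodium-coupled myo-inositol carrier that accumulates this osmolyte, went the other way. Its controls held 1.35, 6.18 and 19.1 CPM and its 24 h libraries 1.23, 0.66, 4.72 and 0.864 CPM, so that the groups overlapped. It was called lower at 16 h (-1.36 ± 0.52, adjusted p = 0.0291), 20 h (-1.69 ± 0.54, adjusted p = 0.00948) and 24 h (-1.97 ± 0.55, adjusted p = 0.00313). None of these calls was kept against controls 5, 6 and 7 alone, where the 16 h value was 0.30, and the 16 h call was also lost without control 2 or 16 h library 1, 2 or 3 (adjusted p = 0.0508 to 0.08). Its gene model overlaps MRPS6.

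In the same SLC5 family, SLC5A6 encodes SMVT, which carries the vitamins biotin and pantothenate rather than sugar (chromosome 3, 111919298 to 111930944, overlapping ATRAID). It rose from 12.3, 16.4 and 22.2 CPM in the controls to 89.1, 81.1, 61.7 and 69.3 CPM at 16 h, with no overlap at any time from 8 to 24 h. The 16 h change was 2.10 ± 0.22 (adjusted p = 1.10e-08), a 4.28-fold rise. It was called at each time from 8 to 48 h, though at 12 h not against controls 5, 6 and 7 alone (0.94, adjusted p = 0.0527). At 48 h (0.94 ± 0.22, adjusted p = 0.0032) libraries 1 and 3 held 57.1 and 40.2 CPM against 21.6 and 16.0 CPM in libraries 2 and 4, and the call was lost without library 1 (adjusted p = 0.147).

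SLC5A4 belongs to the SGLT branch, whose human product has been described as a glucose sensor (chromosome 14, 48708047 to 48741440). It fell from 6.59, 12.1 and 15.3 CPM in the controls to 1.65, 2.16, 1.39 and 1.72 CPM at 16 h. The 8, 16, 20 and 24 h libraries all lay below the controls, and the 16 h change was -2.62 ± 0.33 (adjusted p = 2.30e-07). Calls ran from 8 to 24 h, and that at 12 h was lost against controls 5, 6 and 7 alone (-0.61). SLC5A10, encoding the mannose carrier SGLT5, was called higher at 12, 16, 20 and 24 h by 0.48 to 0.85, and its gene model overlaps GRAP and FAM83G.

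The monocarboxylate family held the largest rise of all 41 members by log2 fold change, that of SLC16A9, whose product MCT9 carries carnitine (chromosome 14, 63026661 to 63109137). Its control levels were low, at 0.456, 0.942 and 3.03 CPM. It held 5.24, 2.43, 4.37 and 4.08 CPM at 8 h, 20.8, 17.3, 7.79 and 6.39 CPM at 16 h and 25.7, 12.8, 9.79 and 11.13 CPM at 24 h. The 12, 16, 20 and 24 h libraries were all above the controls. The log2 changes were 3.30 ± 0.36 at 16 h (adjusted p = 2.79e-08) and 3.48 ± 0.36 at 24 h (adjusted p = 9.33e-09), an 11.2-fold higher level. Since the table holds no gene that is low in every library, SLC16A9 may be in it only through its 16 and 24 h libraries. Its rank as the largest rise is therefore not independent of how rows were kept, nor are its maxima at 16 and 24 h.

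Between these maxima SLC16A9 was lower, at 3.08, 4.74, 4.05 and 5.29 CPM at 20 h, and by 48 h it had returned to 2.39, 2.19, 1.39 and 1.45 CPM. The steps from 16 to 20 h (-1.60 ± 0.43, adjusted p = 0.0425), from 20 to 24 h (1.78 ± 0.43, adjusted p = 0.0179) and from 24 to 48 h (-2.99 ± 0.46, adjusted p = 6.62e-05) were each called. With the library sets as a term, no transporter was called from 16 to 20 h or from 20 to 24 h.

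SLC16A1 encodes MCT1, which takes up lactate and is typical of slow oxidative fibres (chromosome 4, 107510920 to 107547609, overlapping LRIG2). Its controls held 62.7, 252 and 392 CPM, and it was called lower at 16 h, where it held 99.0, 127.1, 101.4 and 115.9 CPM (-1.13 ± 0.28, adjusted p = 0.00127), and at 20, 24 and 48 h (-0.75 to -1.02). All 4 times overlapped with the controls. Against controls 5, 6 and 7 alone none of these falls was called, and the 20 and 24 h values became 0.22 and 0.21. The calls were also lost without 20 h library 2, 3 or 4, without 24 h library 1 or 3, and without 48 h library 1 or 3, each at that library's own time (adjusted p = 0.0501 to 0.0738).

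SLC16A3 encodes MCT4, which exports lactate and is typical of fast glycolytic fibres (chromosome 12, 796882 to 807480). It spread from 13.4 through 61.7 to 271 CPM in the controls. At 24 h it held 26.7, 16.7, 3.93 and 11.06 CPM, partly below and partly within that range, a change of -2.62 ± 0.67 (adjusted p = 0.00145), and no other time was called. At 48 h it held 43.9, 256.9, 62.4 and 174.2 CPM, and the step from 24 h was 3.20 ± 0.73 (adjusted p = 0.00257). The 24 h fall was kept in each setting of the control libraries (-1.97 without controls 5, 6 and 7, and -3.41 against them alone).

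SLC16A14, an orphan of the family, was called higher at each time from 8 to 48 h, and reached 7.92, 10.9, 12.7 and 14.9 CPM at 20 h against 1.54 to 3.35 CPM in the controls (2.31 ± 0.30, adjusted p = 5.29e-07). Its 16 h call was lost with the library sets as a term (1.05), and its 48 h call without 48 h library 1. SLC16A7, encoding MCT2, was called lower only at 4 h (-2.08 ± 0.69, adjusted p = 0.0344), but against controls 5, 6 and 7 alone that value was 0.20 and the gene was called higher at 8, 16, 20, 24 and 48 h. SLC16A5 and SLC16A10, encoding MCT6 and the aromatic amino acid carrier TAT1, passed no test at any single time against the full set of controls. With the 7 times together SLC16A5 was called (adjusted p = 0.0274) and SLC16A10 was not (adjusted p = 0.11).

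**Figure D4:**
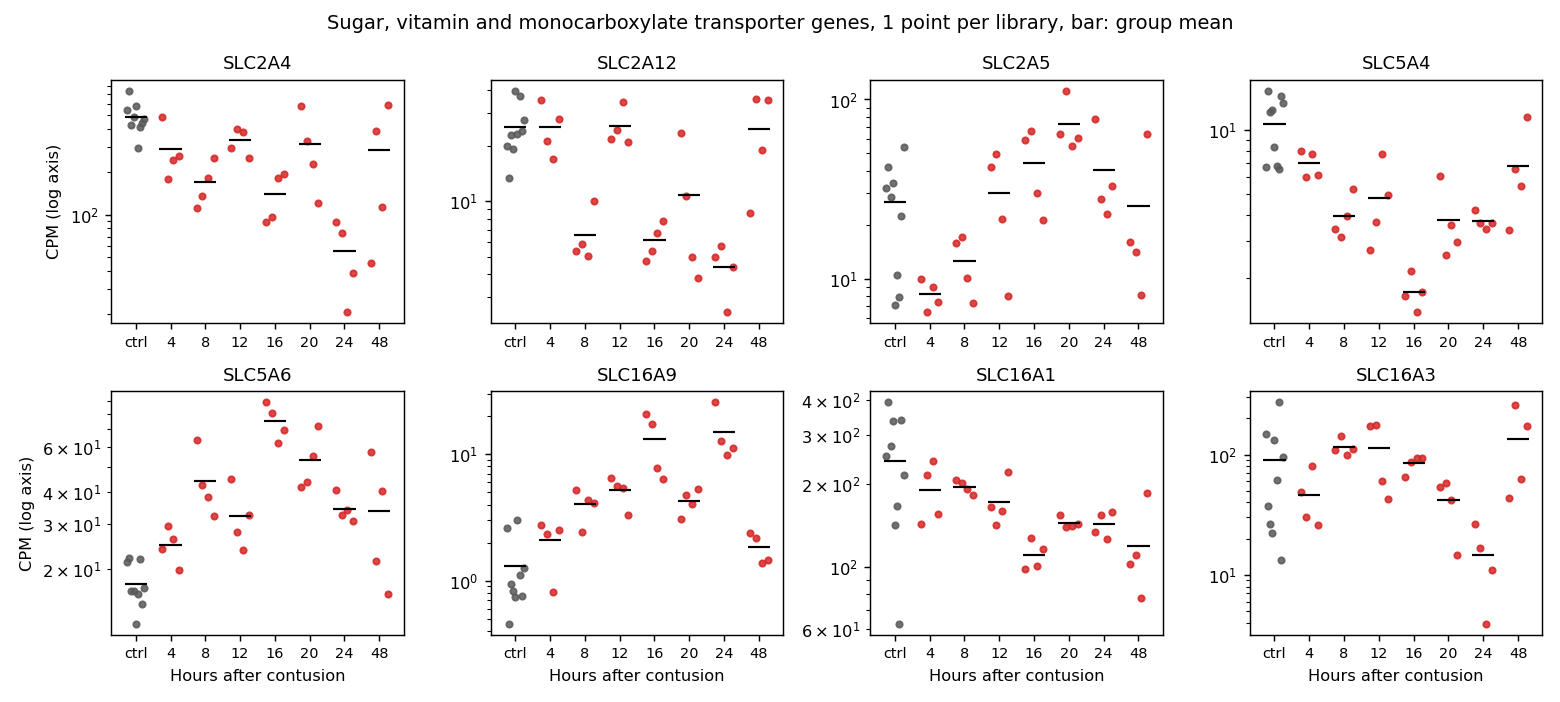
CPM (log axis) of 8 sugar, vitamin and monocarboxylate transporter genes in each library, by group (control in grey, hours after contusion in red), with the group mean as a bar. SLC2A4 is lowest at 24 h (20.7 to 89.3 CPM), SLC2A12 dips at 8 and 16 h but not at 12 h, and SLC16A9 is highest at 16 and 24 h.

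Successive times were also tested against each other. From 4 to 8 h, 11 members passed (8 higher and 3 lower) against 31.3% of all genes (16% higher and 15.4% lower). From 8 to 12 h, 3 passed (2 higher and 1 lower) against 12.1% (7.14% and 4.95%): SLC2A12 and SLC38A9 rose and SLC6A8 fell. From 12 to 16 h, 7 passed (5 higher and 2 lower) against 14.2% (4.72% and 9.51%).

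From 16 to 20 h, 1 passed against 2.16% (1.01% higher and 1.15% lower), which was the fall of SLC16A9. From 20 to 24 h, 3 passed against 3.21% (1.93% higher and 1.28% lower): SLC16A9 and SLC38A9 rose and SLC2A4 fell. The busiest step for the transporters was from 24 to 48 h, where 16 passed (7 higher and 9 lower), or 39.0% of members against 19.5% of all genes (10.2% higher and 9.22% lower). In that step SLC43A2, SLC3A2, SLC6A8, SLC7A1 and SLC16A9 fell and SLC7A2, SLC38A3, SLC2A4, SLC2A12 and SLC16A3 rose. With 48 h libraries 2 and 4 left out, 5 members were called from 24 to 48 h, and 8 were with the library sets as a term.

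Partners of the transporters were described from lists of pathway genes. Of 13 genes for glucose uptake that were measured, 3 rose and 5 fell at each of 16, 20 and 24 h, against 53.1%, 51.5% and 53.9% of all genes called. HK2, hexokinase 2, which traps glucose as its phosphate, rose from 95.9 ± 47.0 CPM in the controls to 1590 ± 545 CPM at 16 h (log2 4.05 ± 0.38, adjusted p = 1.44e-09), at the time SLC2A4 was low. PPARGC1A, a coactivator of oxidative metabolism, fell from 45.6 ± 17.2 to 7.02 ± 1.88 CPM at 16 h (-2.70 ± 0.48, adjusted p = 2.94e-05). RAB10, a small GTPase of GLUT4 vesicle traffic, fell at 24 h by 0.87 ± 0.12 (adjusted p = 5.79e-07).

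Of 17 measured genes of the amino acid response under the transcription factor ATF4, 4 rose and 5 fell at 8 h, where 54% of all genes were called, and 6 rose and none fell at 12 h, where 31% were. At 4 h 5 rose and at 48 h 4 rose, with none lower, against 9.22% and 12.8% of all genes called higher. At 20 h 3 rose and 6 fell, against 25.4% of all genes higher and 26.2% lower. At 16 h 4 rose and 3 fell, against 25.3% and 27.8%, and at 24 h 3 rose and 5 fell, against 26.8% and 27.1%. The list thus held only rises at 4, 12 and 48 h and both directions at 8, 16, 20 and 24 h. TRIB3, a pseudokinase induced by ATF4, rose at all 7 times, from 0.804 ± 0.626 CPM in the controls to 20.4 ± 6.36 CPM at 8 h (4.62 ± 0.51, adjusted p = 2.41e-08). CEBPB, a bZIP partner of ATF4, rose at 8 h (2.59 ± 0.36) and 16 h (2.57 ± 0.36), while PHGDH, which starts serine synthesis, rose at 4 h (2.07 ± 0.35) and fell at 8 h (-1.55 ± 0.44).

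Of 20 measured genes of amino acid sensing by mTORC1, 1 rose and 7 fell at 24 h, which is below the 53.9% called over all genes. At 4, 12 and 48 h 4, 4 and 3 fell, against 9.06%, 14.7% and 7.45% of all genes called lower. At 8, 16 and 20 h 5, 6 and 5 fell, against 28.2%, 27.8% and 26.2%. Between 0 and 2 rose at each time, against 9.22% to 26.8% of all genes called higher. The riser at 24 h was RRAGC, a Rag GTPase (0.77 ± 0.12, adjusted p = 3.98e-06). RRAGB, another Rag GTPase, fell at 8 h by 0.92 ± 0.17 and FNIP1, a folliculin partner, by 1.06 ± 0.16. Of 9 measured genes of glutathione and cystine handling, 6 rose and none fell at 16 h, where 53.1% of all genes were called and 25.3% were higher. At 4, 24 and 48 h 4, 5 and 2 rose and none fell, against 9.22%, 26.8% and 12.8% of all genes called higher. At each of 8, 12 and 20 h 3 rose and 1 fell, against 25.8%, 16.3% and 25.4% called higher. TXNRD1, thioredoxin reductase, rose from 66.9 ± 23.1 to 351 ± 120 CPM at 8 h, the time of the SLC7A11 call (2.39 ± 0.33, adjusted p = 5.97e-07), and GSR, glutathione reductase, rose to 48.4 ± 8.27 CPM at 24 h from 11.4 ± 3.23 CPM (2.08 ± 0.27).

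Of 5 measured genes of carnitine handling, 3 fell at 4 h, 4 fell at each time from 8 to 48 h and none rose, where 7.45% to 28.2% of all genes were called lower. CPT1B, which joins carnitine to fatty acids at the mitochondrion of muscle, fell from 307 ± 165 to 61.0 ± 14.7 CPM at 20 h (-2.33 ± 0.45, adjusted p = 8.57e-05). CPT2 fell at 20 h by 2.19 ± 0.38, and TMLHE, which starts carnitine synthesis, by 1.08 ± 0.15.

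Of 9 measured genes of creatine and osmolyte handling, 7 fell and none rose at 8 h, against 28.2% of all genes called lower at that time. At 4, 12, 20 and 24 h 2, 4, 4 and 5 fell, against 9.06%, 14.7%, 26.2% and 27.1% of all genes called lower. At 16 h 3 fell, near the 27.8% of all genes. At 48 h none fell, against 7.45%, and none rose at any time. CKMT2, the mitochondrial creatine kinase of muscle, fell to 422 ± 180 CPM at 20 h from a control mean of 1870 CPM (-2.15 ± 0.39, adjusted p = 4.76e-05). AKR1B1, which makes sorbitol, fell by 0.96 ± 0.20 and IMPA1, which makes inositol, by 0.68 ± 0.12 at 8 h.

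Of 6 measured partners of the monocarboxylate transporters and lactate enzymes, 3 rose and 1 fell at 8 h, where 54% of all genes were called. At 12 h 3 rose and none fell, against 16.3% of all genes called higher. At 16 h 2 rose and 1 fell, against 25.3% higher and 27.8% lower. At 20 h 1 rose and 1 fell, against 25.4% and 26.2%. At 24 h 0 rose and 2 fell, against 26.8% and 27.1%. At 4 and 48 h none was called, against 18.3% and 20.3% of all genes. HIF1A, the oxygen-regulated factor, rose at 8, 12, 16 and 20 h, by 1.22 ± 0.26 at 8 h (adjusted p = 0.000273). CA14, a membrane carbonic anhydrase, fell at 16, 20 and 24 h, to 9.79 ± 7.96 CPM at 24 h from 93.2 ± 37.7 CPM (-3.26 ± 0.64, adjusted p = 9.35e-05), the time of the SLC16A3 fall.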

How the data were processed

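RNA from flash-frozen skeletal muscle was extracted with Trizol and read in pairs on a HiSeq-2500 from NEBNext Ultra libraries, as the labels' protocols state. Per the submitters' processing notes, the genome build was Sscrofa11.1 and the tools included Trimmomatic, HISAT2 2.2.1 and HTSeq, besides FastQC and MultiQC. The sources used here give no strand setting, annotation release or rule by which rows were kept. The authors deposited raw counts, as 1 table of 9418 genes and 37 libraries. Each row reaches at least 101 counts in some library, and column totals ran from 9.86 to 22.9 M counts, so totals are not the sequencing depth. The floor of 3 counts corresponds to 0.108 to 0.378 CPM, for counting error only. Lengths of transcripts were not used, so levels are compared within a gene only.

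Libraries were grouped by title. In R 4.3.3, edgeR 4.0.16 (TMM, filterByExpr, robust quasi-likelihood F-test, limma 3.58.1) was fitted to all 37 libraries with group as the only factor, with Benjamini-Hochberg adjustment over the 9411 genes tested. Each time was tested against control, the 7 times together and each time against the one before. The members, pathway and marker lists were chosen with earlier results of these data known. Values are given in full for SLC2A4, SLC5A3, SLC16A1, SLC16A3, SLC3A2, SLC7A5, SLC7A11, SLC7A1, SLC1A4, SLC1A5, SLC38A2, SLC6A6 and SLC6A8, for the 10 further members with the smallest p over the 7 times and a group mean of at least 1 CPM, and for those said to be chosen after their values were seen; from each pathway list at most 3 genes with the smallest p were eligible. CPM use TMM-scaled totals. Gene spans and overlaps come from a RefSeq gene table of Sscrofa11.1, in which all 41 members were found, 10 of them overlapping another protein-coding gene.

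Alternatives were RLE size factors, scaling by column totals, no filter, DESeq2 1.42.0, a replicate block, only the groups compared and leaving out each library. Added after the data were seen were the library sets as a term (sets cut at totals of 20 M, and at 8 CPM of C1QBP, 4 CPM of NDUFAF8 and 32 CPM of ND6), omission of set 2, of controls 5, 6 and 7, of the other 6 controls, and of 48 h libraries 2 and 4. On simulated data of 9411 genes, the fit found, at 8 h against control, 80% of genes with a log2 difference of 1 and 98% with a difference of 2, and at 48 h 73% and 93%. Among 78 pairs of libraries within a group, the smallest chi-square over genes was 16.1 per degree of freedom, so no pair differed by as little as sampling noise.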

Additional observations from a re-analysis of the deposited data

Results flagged for a closer look

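Each of the 41 transporter genes was examined in the control libraries and at each of the 7 times, 328 groups in all, on the log2(CPM + 0.5) scale. In 5 of them 1 library lay far from the others, which is fewer than the about 1 in 20 that chance gives. SLC16A9 in 4 h library 3 stood at 0.818 CPM, while the other 3 libraries of that time lay between 2.34 and 2.74 CPM. SLC38A10 in 20 h library 4 was low at 20.3 CPM, against 31.5 to 32.8 CPM in the other 3. SLC7A2 in 12 h library 1 was low at 46.4 CPM, against 60.3 to 63.3 CPM. SLC2A8 in 8 h library 2 was high at 5.82 CPM, against 4.86 to 4.97 CPM. SLC6A20 in control 7 was high at 10.8 CPM, against 2.83 to 4.30 CPM in the other 8 controls.

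For 3 genes the change against control was called in opposite directions at different times, and the difference between those times was itself tested with edgeR. SLC2A5, the fructose transporter gene, was lower at 4 h (8.22 CPM) and higher at 20 h (72.9 CPM), a difference of 3.15 on the log2 scale (adjusted p = 0.00087). SLC38A10 was lower at 4 h (19.8 CPM) and higher at 16 h (52.5 CPM), a difference of 1.41 (adjusted p = 0.000121). SLC38A9, the lysosomal arginine sensor gene, was lower at 8 h (5.51 CPM) and higher at 24 h (16.0 CPM), a difference of 1.54 (adjusted p = 2.37e-06). With the library sets as a term, the 4 h falls of SLC2A5 (-0.34) and SLC38A10 (0.06) were not called. Nor were the 8 h fall of SLC38A9 (-0.35) and the 16 h rise of SLC38A10 (0.38). The differences between those times were not tested with that term.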

How the results depend on the processing

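Calls against control were followed for transporters fixed by name and for those with the smallest p over the 7 times. Of these 96 calls, 57 were made under every alternative, 39 were lost under at least 1, and 4 reversed. The second kind of gene was picked on these same data for its small p. The share of calls kept may therefore be too high as a measure for the other members. All 4 reversals came with only controls 5, 6 and 7 kept: SLC38A4 at 12 h (0.06), SLC5A3 at 16 h (0.30) and SLC16A1 at 20 h (0.22) and 24 h (0.21). That setting also lost the most calls, 28, but with fewer controls a call can be lost without a smaller change. DESeq2, RLE size factors and no filter lost none. The cause of these changes was not tested. Scaling by column totals moved the median log2 change over the whole table the most at 24 h (0.48), next at 16 and 48 h (0.35 each) and 20 h (0.33), and downwards at 4 h (-0.15), and directions are given on the TMM scale.

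Counts of called members moved by more than 1.5 times as follows. RLE size factors gave 2 from 16 to 20 h. Column totals gave 18 at 48 h, and 1 (8 to 12 h) and 0 (16 to 20 h) between times. DESeq2 gave 3 from 16 to 20 h and 5 from 20 to 24 h. Only the groups compared, with fewer samples in each fit, gave 6 (4 h) and 5 (48 h) against control, and 1 (8 to 12 h), 5 (16 to 20 h) and 9 (24 to 48 h) between times. The library sets as a term gave 2 (4 h), 19 (16 h) and 7 (48 h) against control, 8 from 24 to 48 h and 0 for each of the other 5 successive steps. Without set 2, which leaves 1 library at 4 h that is assumed to vary like the other groups, 4 were called at 4 h, 1 in the step from 12 to 16 h, and 0 in the steps to 8, 20 and 24 h. Without controls 5, 6 and 7, 16 were called at 4 h, and against those 3 alone 2 at 4 h, 8 at 12 h and 4 at 48 h. Without 48 h libraries 2 and 4, 20 were called at 48 h and 5 from 24 to 48 h.

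Leaving out 1 library at a time gave, against control, 3 to 11 (4 h), 21 to 26 (8 h), 13 to 20 (12 h), 27 to 32 (16 h), 26 to 31 (20 h), 26 to 31 (24 h) and 0 to 19 (48 h), and 35 to 38 over the 7 times. The successive steps gave 6 to 18 (4 to 8 h), 1 to 6 (8 to 12 h), 3 to 10 (12 to 16 h), 0 to 1 (16 to 20 h), 1 to 3 (20 to 24 h) and 10 to 17 (24 to 48 h). At 4 h the count was 3 without library 2, and 6 without library 3 or 4. At 48 h it was 0 without library 1, 4 without library 3 and 19 without library 4.

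Replicate numbers did not pair the libraries: over 112 same-numbered pairs the correlation of deviations ran from -0.6 to 0.6, with 45 above 0.1. The replicate block gave 12 (4 h), 27 (8 h), 19 (12 h), 31 (16 h), 26 (20 h), 30 (24 h) and 10 (48 h) against control and 2 from 16 to 20 h.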
